A study of Mus musculus with 48 samples.

Results

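Airspace macrophages of mice lacking Siglec-F (knockout, KO) were compared between day 21 and day 7 after bleomycin, over all expressed genes. The comparison uses 3 mice at KO day 21 and 3 mice at KO day 7, which are 6 of the 24 mice sequenced, and it tests 12634 of the 24411 genes in the deposited table. All mice were male, and both groups had received 2.5 units/kg of bleomycin into the trachea; 3 KO mice given saline and marked day 0 (naive) and 3 KO mice at day 14 are shown beside them. Wild type (WT) mice at day 21 and day 7, 3 each and treated alike, are used to ask whether the change over time differed between genotypes. The sources used here do not say how the knockout was made, how old the mice were, or how macrophages were separated from other cells of the bronchoalveolar lavage.

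Bleomycin is a chemotherapy drug that injures the lung epithelium. In mice given it through the airway, inflammation comes first, collagen is then laid down, and the scar partly resolves later. Alveolar macrophages live on the air side of the lung, where they clear surfactant lipid under control of the nuclear receptor PPAR-gamma; after injury, monocytes from the blood enter the airspaces and become macrophages that take on features of resident cells over time. Siglec-F is a sialic acid-binding receptor with an inhibitory tail that marks resident alveolar macrophages and eosinophils in mice, and the series asks what its signalling does in airspace macrophages and in fibrosis.

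Library totals of the 6 mice ran from 34537505 to 40082161 counts. Siglecf (ENSMUSG00000039013.16; mm10 chromosome 7, 43351341 to 43359531) had 2 to 10 counts in each of these KO libraries. WT libraries of the same days had 2631 to 3883 counts, and WT naive libraries up to 20368. KO day 21 mouse 1 stood apart from its group on the first principal component, which held 57.5% of the variance. On it, day 21 mice 2 and 3 lay at 29.1 and 18, day 7 mice at 19.6 to 38.7 and KO naive mice at -58.1 to -54. KO day 14 mice were spread along it, at 21.6, 1.6 and -15.8, and day 21 mouse 1 lay at -20.4. Values of this mouse are therefore given separately below, with counts of list members without it where they moved by more than 1.5 times. Defining markers of macrophages were abundant: Itgax (CD11c) stood at 1731 to 2075 CPM (counts scaled to a common library total) at day 21 and 876 to 1014 CPM at day 7, and Mrc1 (CD206) at 1449 to 1982 CPM at day 21 and 1014 to 1269 CPM at day 7. Markers of other cells were counted as well, and their part in the results was not tested. The summed level of 13 neutrophil markers was 164 to 180 CPM at day 21 and 136 to 156 CPM at day 7, with S100a8 the 1 of 10 tested that rose. S100a8 had 13.2, 128 and 52 CPM at day 21, against 20.4, 22.5 and 16 CPM at day 7. limma-voom did not call it, and without day 21 mouse 2 its log2 fold change was 0.73 and not called. The summed level of 18 epithelial markers was 222 to 311 CPM at day 21 and 255 to 280 CPM at day 7. Of the 18 tested 2 rose, Ager and Krt8, neither called by limma-voom. The sum was mostly Cdh1, Napsa, Epcam and Hopx, whereas Sftpc, the surfactant gene of type 2 cells, stood at 11.6 CPM in day 21 mouse 3, 0.406 and 3.54 CPM in day 21 mice 1 and 2, and 0.524 to 0.833 CPM at day 7. Cldn18, Krt18 and Sftpb were also highest in day 21 mouse 3, at 8.69, 3.98 and 6.31 CPM. That of 12 eosinophil, basophil and mast cell markers was 0.285 to 2.41 CPM at day 21 and 0.993 to 2.65 CPM at day 7, with Epx and Mcpt8 at 0 in all 6 libraries. B and plasma cell markers summed to 0.352 to 9.31 CPM at day 21 and 0.607 to 1.74 CPM at day 7, with Fcmr the 1 of 6 tested that rose, and erythroid markers, none of them called, summed to 15.2 to 63.7 CPM at day 21 and 1.42 to 42.9 CPM at day 7. The sum of 18 T and NK cell markers was 138 to 344 CPM at day 21 and 148 to 171 CPM at day 7; its high value came from Cd2, at 322 CPM in day 21 mouse 1, a gene that KO naive macrophages also had at a mean of 366 CPM. Cd3e, of the T cell receptor complex, was highest in day 21 mouse 2 at 11.9 CPM, beside 1.16 and 3.41 CPM in day 21 mice 1 and 3 and 2.08 to 4.8 CPM at day 7, and Cd3d, Cd3g and Lck were highest in that mouse too. Of 14 fibroblast and endothelial markers, Col3a1, Dcn, Lum, Cldn5 and Tagln were at 0 in all 6 libraries, and the sum of 104 to 145 CPM at day 21 against 70.4 to 88.2 CPM at day 7 was mostly Vwf, the 1 of 7 tested that rose, while Kdr and Acta2 fell.

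Between day 21 and day 7, 904 genes rose and 976 fell in KO macrophages, which are 7.16% and 7.73% of the genes tested (edgeR quasi-likelihood test, Benjamini-Hochberg adjusted p under 0.05 over all genes, called below). The genes that fell included most members of lists of DNA replication, mitosis and interferon response genes, the monocyte-attracting chemokines, and markers of monocytes and of interstitial macrophages. The genes that rose included markers of resident alveolar macrophages and genes of cholesterol efflux and fatty acid handling. More than 2-fold changes were called for 179 genes that rose and 400 that fell, and more than 4-fold changes for 38 and 120. Over all genes tested the median log2 fold change was 0.02. The 3 day 21 mice and the 3 day 7 mice did not overlap in 1685 of the 1880 called genes and in 3559 of all genes tested, or 28.2%. The call rests on a spread estimated from all 8 groups; with a model of these 2 groups alone 138 genes rose and 288 fell. Without day 7 mouse 1 the counts were 405 and 568, without day 7 mouse 2 they were 570 and 751, and without day 21 mouse 1 they were 729 and 819. Among the 134 named genes that were called, 73 were not called in the model of the 2 groups alone and 46 were lost when at least 1 of the 6 mice was left out. Those described below that were lost without at least 1 mouse are Abca1, Abcg1, Axl, Ccl3, Cd209a, Chil3, Cyp4f18, Ear1, Fabp3, Gas6, Insig1, Lyz1, Mrc1, Nr1h3, Pdgfa, Per2, Retnla, Tgfb1 and Vwf, and the markers Acta2, Ager, Fcmr, Krt8 and S100a8. Those lost in the model of the 2 groups alone are all of these except Vwf and Fcmr, the last with no value there, and also Apoc1, Asns, Ccl17, Ccl2, Cd274, Cd9, Creg1, Eno1, Isg15, Itgam, Mag, Mamdc2, Plekha6, Pparg, Scap, Tgfbr2, Tlr1, Tlr8, Trib3 and Trim30a.

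**Figure D1:**
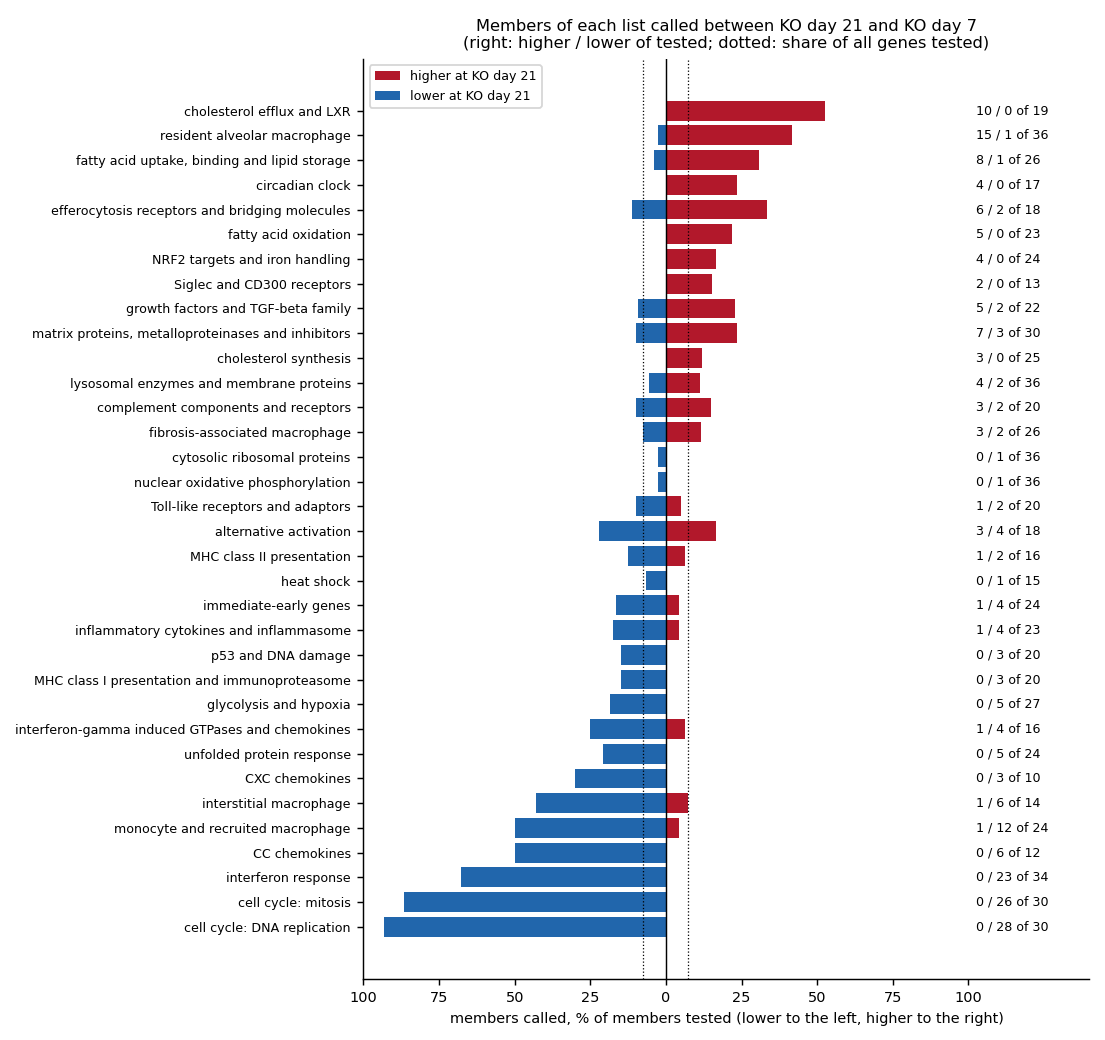
Share of tested members of each gene list that were called between KO day 21 and KO day 7, in percent, with higher to the right and lower to the left of zero; dotted lines mark the shares among all genes tested, 7.16% and 7.73%. DNA replication (28 of 30 lower), mitosis (26 of 30 lower) and the interferon response (23 of 34 lower) lie at the bottom, and cholesterol efflux (10 of 19 higher) and resident alveolar macrophage genes (15 of 36 higher) at the top.

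Genes of the cell cycle fell together. Of 30 tested genes of DNA replication, 28 fell and 0 rose, with a median log2 fold change of -0.94, against 0.02 over all genes. Rrm2, the regulated subunit of the enzyme that makes deoxynucleotides, stood at 34.2, 35.7 and 41.6 CPM in the 3 day 21 mice, against 93.8, 74.8 and 91.7 CPM in the 3 day 7 mice. All day 21 mice were below all day 7 mice, and the log2 fold change was -1.22 ± 0.10 (SE; edgeR adjusted p = 2.3e-07). Mcm5 and Mcm3, subunits of the replicative helicase, fell by 1.27 and 0.88 on the log2 scale, with Mcm5 at 35.5, 29.5 and 31.4 CPM at day 21 and 79.8, 62.6 and 91.1 CPM at day 7. Mcm6, another helicase subunit, fell by 0.95, Rrm1, the large subunit paired with Rrm2, fell by 1.00, and Uhrf1, which copies DNA methylation after replication, fell by 1.22. The remaining pair, Rfc4 and E2f1, had log2 fold changes of -0.25 and -0.10 and were not called; without day 21 mouse 1 E2f1 was called at -0.41 (edgeR adjusted p = 0.042). In bulk RNA of this kind, fewer cells of a type and less RNA per cell cannot be told apart.

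Of 30 tested genes of mitosis, 26 fell and 0 rose, with a median log2 fold change of -1.20. Plk1, a kinase that drives entry into and passage through mitosis, had 11.8, 16.3 and 21.6 CPM at day 21, against 54.2, 44.3 and 47.9 CPM at day 7 (log2 fold change -1.56 ± 0.19, SE; edgeR adjusted p = 1.8e-05). Racgap1 and Aurkb, both needed for cytokinesis, fell by 1.20 and 1.12. Cdc20, the activator of the anaphase-promoting complex, fell by 1.30, Cdk1, the central mitotic kinase, by 1.07, and Kif11, the spindle motor Eg5, by 1.30. Mki67, which encodes the proliferation antigen Ki-67, was not called. It had 25, 58.1 and 96.4 CPM at day 21 and 40.8, 87 and 78.8 CPM at day 7, the mice overlapped, and its log2 fold change was -0.20 ± 0.58 (SE; edgeR adjusted p = 0.86). Cenpf, Cenpe and Cks2, at -0.73, -0.74 and -0.34, were the other members not called, and Cks2 was called at -0.70 without day 21 mouse 1 (edgeR adjusted p = 0.018).

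The replication genes lay below their naive level at day 21. The level of the replication list, taken as the mean of log2(CPM + 1) over its genes, was 4.75 to 4.82 in naive mice, 4.85 to 5.23 at day 7, 4.28 to 4.35 at day 14 and 4.2 to 4.24 at day 21. The 3 day 21 mice were close to each other on this scale, and day 21 mouse 1 did not stand apart. For mitosis the levels were 4.3 to 4.54 in naive mice, 4.96 to 5.24 at day 7, 4.19 to 4.44 at day 14 and 3.7, 4.05 and 4.39 in day 21 mice 1 to 3, so that day 21 mouse 3 lay within the naive range. With each mouse of the 2 groups left out in turn, 26 to 28 replication genes and 24 to 26 mitosis genes fell, and the model of the 2 groups alone called 16 and 17. In WT mice 28 replication genes and 23 mitosis genes fell between the same days, with medians of -0.93 and -0.86.

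Promoters of these genes are shown because the members moved together. The sequences came from RefSeq on GRCm38.p6, the mm10 build, and the 250 bases before each start were searched on both strands for 7 motifs, in 9613 tested genes with an entry. TTTGAA, the core of the cell cycle genes homology region (CHR), was found in 7 of 21 mitosis genes that fell, or 33.3%, and in 12.8% of all genes. CCAAT, the box bound by NF-Y, was found in 17 of 21, or 81%, and in 40.5% of all genes. It was also found in 14 of 23 replication genes that fell, or 60.9%. The E2F patterns TTCCCGCC and TTCGCGCC were found in 4 and 3 of these 23, or 17.4% and 13%, and in 4.08% and 0.874% of all genes. GGCGGGA, which overlaps the reverse complement of TTCCCGCC, was found in 7 of 23, or 30.4%, and in 20.6% of all genes. Among the mitosis genes that fell it was found in 6 of 21, or 28.6%. The 120 bases directly before the start are given 5′ to 3′ on the gene's strand for the 3 mitosis genes with the smallest p that hold both CCAAT and TTTGAA there, with matches on either strand in capitals.
Cdc20 (chr4:118437344-118437463, minus strand): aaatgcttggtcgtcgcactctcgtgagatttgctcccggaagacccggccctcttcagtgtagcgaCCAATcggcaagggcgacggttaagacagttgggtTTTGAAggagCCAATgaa
Cdk1 (chr10:69352913-69353032, minus strand): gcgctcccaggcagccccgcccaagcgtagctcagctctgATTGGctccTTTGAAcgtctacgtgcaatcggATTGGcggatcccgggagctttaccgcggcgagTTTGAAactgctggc
Kif11 (chr19:37376262-37376381, plus strand): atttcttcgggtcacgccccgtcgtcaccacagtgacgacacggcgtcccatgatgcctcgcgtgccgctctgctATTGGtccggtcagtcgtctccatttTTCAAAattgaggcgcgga

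The same stretch is given for the 3 replication genes with the smallest p that hold either E2F pattern there, with the matches in capitals.
Mcm6 (chr1:128359706-128359825, minus strand): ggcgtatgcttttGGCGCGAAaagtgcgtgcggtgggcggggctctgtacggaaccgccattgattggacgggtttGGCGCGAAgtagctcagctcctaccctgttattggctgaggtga
Rrm1 (chr7:102441575-102441694, plus strand): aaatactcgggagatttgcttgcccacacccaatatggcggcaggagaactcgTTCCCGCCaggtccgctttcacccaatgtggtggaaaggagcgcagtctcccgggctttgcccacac
Uhrf1 (chr17:56303217-56303336, plus strand): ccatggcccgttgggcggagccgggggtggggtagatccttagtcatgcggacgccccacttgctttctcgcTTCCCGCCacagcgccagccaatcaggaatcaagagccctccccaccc

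A motif match in these windows is a description of the sequence, and binding was not measured. Cdk1 holds 4 matches in its 120 bases, and Mcm6 holds 2 matches to the second E2F pattern, both on the opposite strand.

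**Figure D2:**
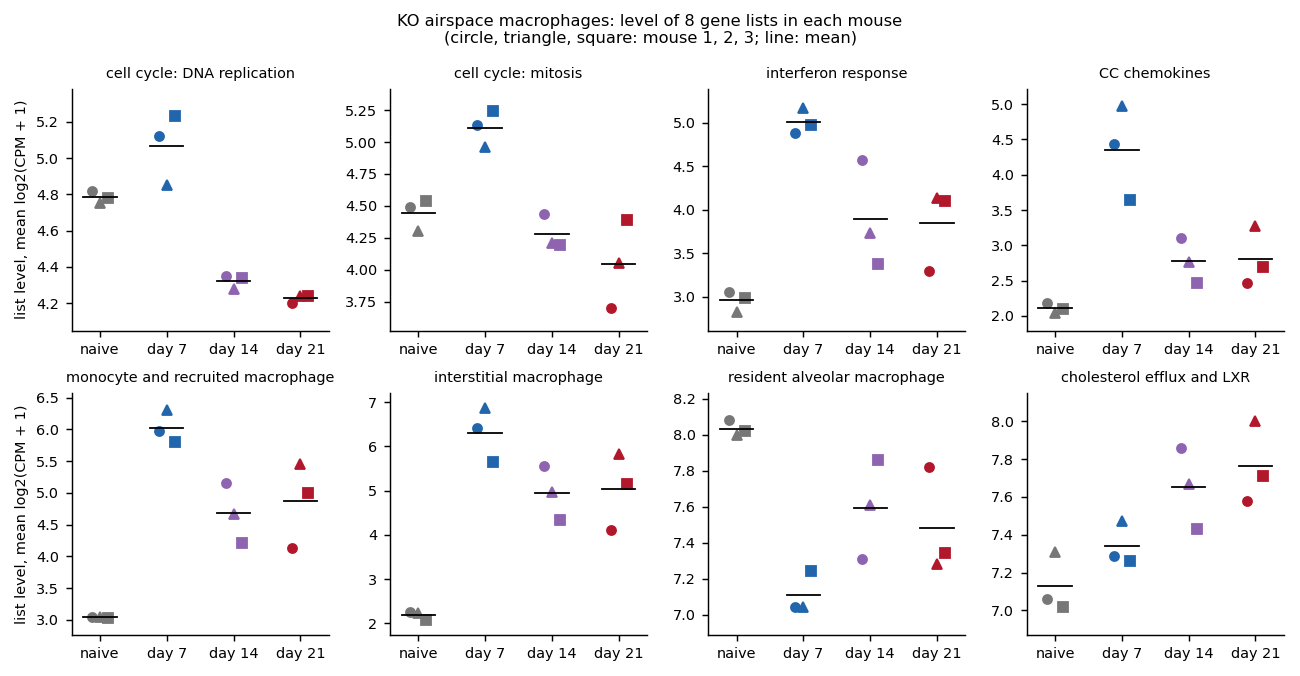
Level of 8 gene lists in each KO mouse, as mean log2(CPM + 1) over the tested members, in naive mice and at days 7, 14 and 21 after bleomycin; points are mice and lines are group means. Replication genes at day 21 (4.2 to 4.24) lie below naive mice (4.75 to 4.82), while monocyte genes at day 21 (4.14 to 5.46) lie between naive mice (3.03 to 3.05) and day 7 (5.8 to 6.31).

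Genes of the interferon response fell in 23 of 34 tested members and rose in 0, with a median log2 fold change of -1.33. These genes are switched on by type I interferons. Oas1a, an oligoadenylate synthetase that senses double-stranded RNA, had 33.7, 54.9 and 61.9 CPM at day 21, against 126, 135 and 116 CPM at day 7 (log2 fold change -1.33 ± 0.22, SE; edgeR adjusted p = 0.00039). Bst2, the antiviral membrane protein tetherin, had 27.7, 51.9 and 43.7 CPM at day 21, against 110, 119 and 76.5 CPM at day 7. Isg15, a ubiquitin-like modifier, had 1.92, 8.21 and 5.48 CPM at day 21, against 16.6, 25.9 and 16.6 CPM at day 7. In each of these 3 genes the lowest value of the 6 mice was that of day 21 mouse 1, and the groups did not overlap. Larger falls of 2.40 in Usp18, which removes ISG15, and of 2.18 in Ifi27l2a stood in the same list. Stat2 and Irf9, which carry the interferon signal to the nucleus, were not called, with log2 fold changes of -0.38 and -0.49; Irf9 was called by DESeq2, by limma-voom and without day 21 mouse 2.

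The level of the interferon list was 2.83 to 3.06 in naive mice, 4.88 to 5.17 at day 7, 3.38 to 4.57 at day 14 and 3.3, 4.13 and 4.1 in day 21 mice 1 to 3, so that the list had not reached the naive level. Without day 21 mouse 1, 17 members fell, and the model of the 2 groups alone called 10. In WT mice 18 fell, with a median of -0.95. Of the 16 tested interferon-gamma induced genes 4 fell, among them Cxcl10, a chemokine for T cells, with 2.84, 2.56 and 1.71 CPM at day 21 and 12.5, 15.5 and 12.4 CPM at day 7 (log2 fold change -2.51 ± 0.29, SE; edgeR adjusted p = 1.3e-05). Irgm1, an interferon-inducible GTPase, fell by 0.88, while Cd274, the checkpoint ligand PD-L1 and a member of the same list, rose by 0.81. The count of 4 was 2 without day 21 mouse 1, without day 7 mouse 2 and in the model of the 2 groups alone, and 6 without day 21 mouse 2.

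The core of the interferon-stimulated response element, searched as GAAA repeated after a gap of any 2 bases, was found in the searched window of 8 of 17 interferon genes that fell and have an entry, or 47.1%, and in 3.33% of all genes with an entry. TGANTCA, the AP-1 pattern, was found in 5 of the 17, or 29.4%, and in 5.53% of all genes. The 3 genes with the smallest p that hold this repeat in the 120 bases before the start are given with every match in capitals, where neighbouring matches overlap.
Oas1a (chr5:120907526-120907645, minus strand): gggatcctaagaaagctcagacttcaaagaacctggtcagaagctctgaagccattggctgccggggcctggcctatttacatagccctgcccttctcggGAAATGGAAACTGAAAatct
Isg15 (chr4:156200819-156200938, minus strand): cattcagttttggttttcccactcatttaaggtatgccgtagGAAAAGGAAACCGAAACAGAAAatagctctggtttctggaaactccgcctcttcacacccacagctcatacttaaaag
Trim30a (chr7:104465194-104465313, minus strand): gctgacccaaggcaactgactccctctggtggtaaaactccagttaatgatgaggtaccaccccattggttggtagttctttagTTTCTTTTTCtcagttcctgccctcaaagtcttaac

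Isg15 holds 3 overlapping matches, Oas1a 2 and Trim30a, a member of the TRIM family of ubiquitin ligases, 1 on the opposite strand. Trim30a fell by 0.46, less than Oas1a at 1.33 and Isg15 at 1.92.

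Chemokines of the CC family fell in 6 of 12 tested members and rose in 0, with a median log2 fold change of -2.04, and 3 fell in the model of the 2 groups alone. Ccl2, which draws CCR2-bearing monocytes out of the blood (ENSMUSG00000035385.5; mm10 chromosome 11, 82035571 to 82037453), had 0.596, 7.57 and 0.854 CPM at day 21, against 101, 94 and 24.4 CPM at day 7. The fall of 4.63 ± 0.79 on the log2 scale (SE; edgeR adjusted p = 0.00054) was 24.8-fold, and the mice did not overlap. Ccl7, a second ligand of CCR2, had 0.19, 1.89 and 0.466 CPM at day 21, against 57.7, 56.5 and 14.1 CPM at day 7 (log2 fold change -5.69 ± 0.70, SE; edgeR adjusted p = 2.7e-05). Ccl12, a further mouse CCR2 ligand, had 0, 0.336 and 0.233 CPM at day 21, against 12.2, 10.1 and 1.21 CPM at day 7. In all 3 genes day 7 mouse 3 was the lowest of its group and day 21 mouse 2 the highest of its own. Without day 21 mouse 2 the genes fell by 6.65, 7.01 and 6.01, and Ccl17, named next, fell by 2.69; without day 21 mouse 1 Ccl12 fell by 4.78. limma-voom did not call Ccl12. Naive means were 0.0633 CPM for Ccl2 and 0.0782 CPM for Ccl7. Ccl9, Ccl17 and Ccl3 fell by 1.67, 1.81 and 1.08, and Ccl6, the most abundant of the 12 in naive mice, was not called (log2 fold change 0.15).

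**Figure D3:**
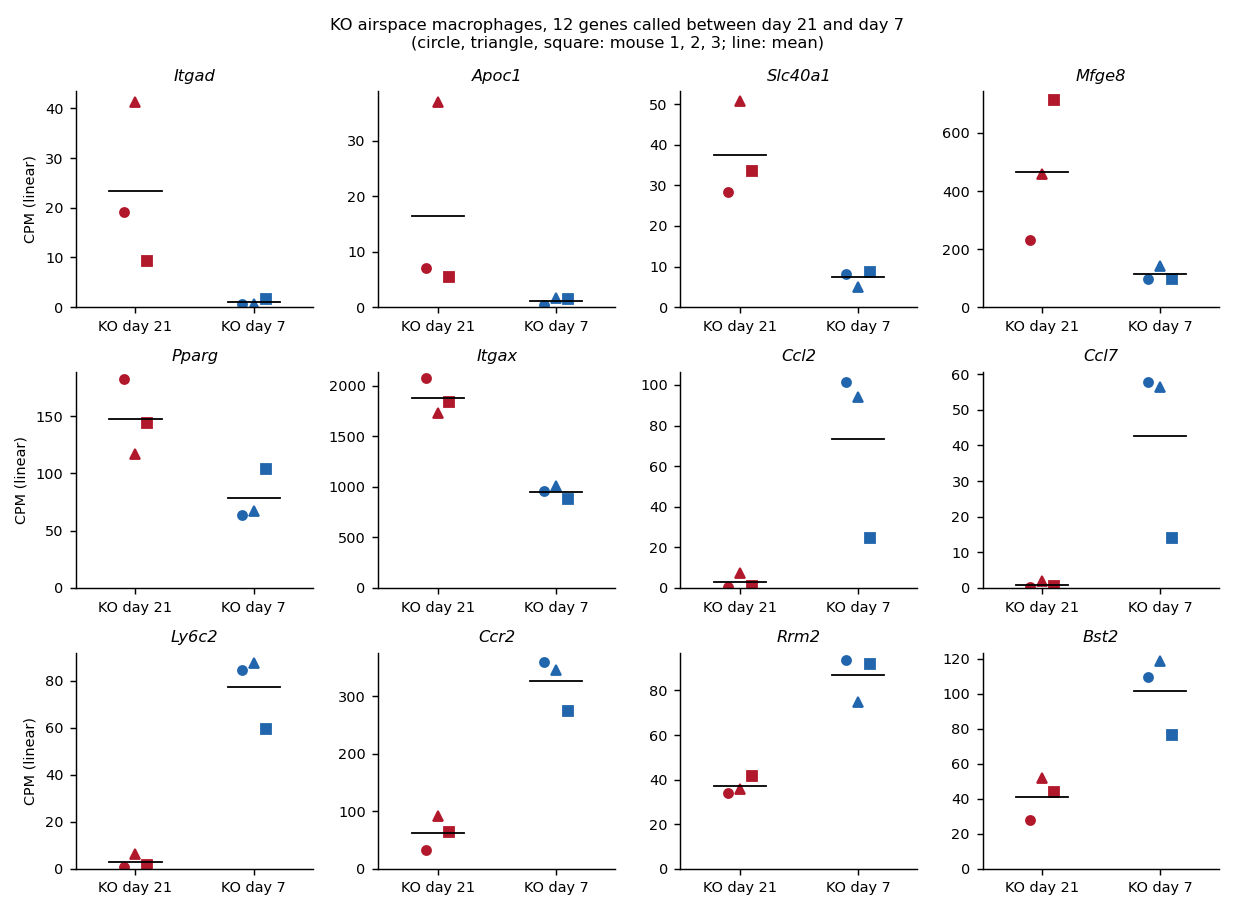
CPM on a linear scale of 12 called genes in the 3 mice of KO day 21 and the 3 of KO day 7, with lines at the group means. Ccl2 (0.596 to 7.57 CPM at day 21, 24.4 to 101 CPM at day 7) shows no overlap of the mice, and Itgad spreads widely within day 21 (9.34 to 41.4 CPM).

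Markers of monocytes and recently recruited macrophages fell in 12 of 24 tested members, with a median log2 fold change of -0.71, while Lyz1 rose by 0.85. Ly6c2, a surface antigen of inflammatory monocytes, had 0.65, 6.29 and 1.68 CPM at day 21, against 84.7, 87.4 and 59.2 CPM at day 7 (log2 fold change -4.76 ± 0.64, SE; edgeR adjusted p = 8.1e-05). Its neighbour Ly6c1 is nearly identical, so that the split of reads between them is uncertain. Ccr2, the receptor for Ccl2 and Ccl7, had 32.1, 91.9 and 64.5 CPM at day 21, against 359, 346 and 274 CPM at day 7, a 5.19-fold fall. Cx3cr1, the fractalkine receptor, had 15.5, 8.46 and 23.6 CPM at day 21, against 121, 85.5 and 65.7 CPM at day 7 (log2 fold change -2.51 ± 0.44, SE; edgeR adjusted p = 0.00061). Itgam, which encodes CD11b, had 23.9, 133 and 41 CPM at day 21, against 492.4, 524.1 and 233.1 CPM at day 7. Without day 21 mouse 2, Ly6c2 fell by 6.04 and Itgam by 3.68. None of these genes overlapped between the groups, and Ccr2 remained above its naive mean of 7.15 CPM in every day 21 mouse. Csf1r, a receptor for macrophage growth factors, had a log2 fold change of -0.14 and was not called. The level of the list was 3.03 to 3.05 in naive mice, 5.8 to 6.31 at day 7, 4.21 to 5.15 at day 14 and 4.14, 5.46 and 5 in day 21 mice 1 to 3. The count of 12 fell to 7 without day 7 mouse 2, and was 8 without day 21 mouse 1 and 4 with the model of the 2 groups alone. In WT mice 7 members fell and 2 rose, with a median of -0.33.

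Among 14 genes of interstitial macrophages, 6 fell and 1, Mrc1, rose. Stab1, a scavenger receptor, had 4.93, 24.1 and 16.9 CPM at day 21, against 302, 342 and 141 CPM at day 7 (log2 fold change -4.10 ± 0.53, SE; edgeR adjusted p = 3.6e-05). Tmem119, a transmembrane protein best known as a microglial marker, had 0.568, 2.05 and 0.517 CPM at day 21, against 16.8, 17.9 and 7.42 CPM at day 7. Both were close to 0 in naive mice, at means of 0.595 and 0 CPM. C1qa, a chain of complement C1q, had 140, 776 and 464 CPM at day 21 and 1417, 1392 and 637 CPM at day 7, overlapped between the groups and was not called (log2 fold change -1.32, edgeR adjusted p = 0.08). It was called without day 21 mouse 2, at -1.93 (edgeR adjusted p = 0.02), and without day 7 mouse 3, at -1.61 (edgeR adjusted p = 0.045), and by limma-voom (adjusted p = 0.032). Without day 21 mouse 2, Tmem119 fell by 4.68, and the list's count of 6 was 3 without day 7 mouse 2 and in the model of the 2 groups alone. Mgl2, a lectin of dendritic cells and of alternatively activated macrophages, had 1.84, 2.05 and 1.55 CPM at day 21, against 55.3, 38.1 and 21.1 CPM at day 7 (log2 fold change -4.40 ± 0.44, SE; edgeR adjusted p = 2.9e-06). Of the 18 dendritic cell markers 3 fell, Mgl2, Irf4 and Cd209a, where 6 fell by limma-voom and 5 without day 21 mouse 2. Their summed level was 1180 to 1460 CPM at day 21 and 1090 to 1250 CPM at day 7, mostly from Naaa, Wdfy4 and Irf8. Flt3, Xcr1 and Clec9a stood at 2.57 CPM or less in each library. Ccr7 and Fscn1 were highest in day 21 mouse 2, at 13.9 and 29.1 CPM. 

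Large falls were also called for a matrix protein and a growth factor. Spon1, encoding F-spondin (mm10 chromosome 7), had 2 counts in the 3 day 21 libraries together, against 1025 in the 3 day 7 libraries. The ratio of day 7 to day 21 was 493.3, with a 95% counting interval of 136 to 4080 that covers counting error only. Gdf3, a TGF-beta family ligand, had 0.839, 0 and 0.517 CPM at day 21, against 9.5, 18.4 and 4.94 CPM at day 7 (log2 fold change -4.57 ± 1.09, SE; edgeR adjusted p = 0.0093), a fall of 3.97 without day 7 mouse 2 and of 5.33 without day 21 mouse 1.

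Markers of resident alveolar macrophages rose in 15 of 36 tested members, and 1, Cyp4f18, fell; the median log2 fold change was 0.63. Itgax, encoding CD11c, had 2075, 1731 and 1843 CPM at day 21, against 964, 1014 and 876 CPM at day 7 (log2 fold change 0.98 ± 0.11, SE; edgeR adjusted p = 1.2e-05). Pparg, the nuclear receptor that specifies alveolar macrophages, had 182, 117 and 144 CPM at day 21, against 64, 67.4 and 104 CPM at day 7, a 1.88-fold rise that brought its mean to 147.9 CPM, beside 171 CPM in naive mice. Atp6v0d2, a subunit of the proton pump of lysosomes, and Slc7a2, a transporter of cationic amino acids, rose by 0.79 and 0.70. Chil3, the chitinase-like protein Ym1, had 15640, 14360 and 7953 CPM at day 21, against 4592, 5159 and 7937 CPM at day 7, so that the lowest day 21 mouse and the highest day 7 mouse were almost equal. In Itgax, Pparg, Chil3 and Mrc1 the highest of the 6 values was that of day 21 mouse 1.

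Some resident markers were far higher in day 21 mouse 1 than in the other day 21 mice. Ear1, an eosinophil-associated ribonuclease with near-identical family members, had 684, 96.7 and 80 CPM at day 21, against 60.2, 45.1 and 63.2 CPM at day 7; its log2 fold change of 2.35 was called (edgeR adjusted p = 0.028), and without this mouse it was 0.65 and not called, nor was it called by limma-voom. Fabp1, a fatty acid-binding protein, had 78.3 CPM in that mouse and 1.83 and 6.21 CPM in the other two, against 8.98, 5.28 and 9.02 CPM at day 7. Krt79, a keratin of alveolar macrophages in mice, had 261, 3.79 and 12.4 CPM at day 21, against 43.1, 29.4 and 28 CPM at day 7, so that mice 2 and 3 of day 21 lay below every day 7 mouse. Neither Fabp1 nor Krt79 was called. Naive means were 751, 150 and 471 CPM for the 3 genes. Marco, a scavenger receptor, had 282, 652 and 286 CPM at day 21, against 650, 878 and 662 CPM at day 7, and was not called (log2 fold change -0.84, edgeR adjusted p = 0.13), but was called without day 21 mouse 2, at -1.36 (edgeR adjusted p = 0.018). Car4, a carbonic anhydrase, had 270, 579 and 552 CPM at day 21, against 457, 590 and 552 CPM at day 7, a log2 fold change of -0.19. The level of the whole list was 8 to 8.08 in naive mice, 7.04 to 7.24 at day 7, 7.31 to 7.86 at day 14 and 7.82, 7.28 and 7.34 in day 21 mice 1 to 3. The count of 15 was 13 without day 21 mouse 1 and 7 without day 7 mouse 1, and 4 in the model of the 2 groups alone, and in WT mice 9 members rose with a median of 0.22.

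Genes of cholesterol efflux and of the liver X receptor (LXR) pathway rose in 10 of 19 tested members and fell in 0, with a median log2 fold change of 0.35. Apoc1, an apolipoprotein, had 7.01, 37 and 5.35 CPM at day 21, against 0.468, 1.66 and 1.44 CPM at day 7 (log2 fold change 3.79 ± 0.69, SE; edgeR adjusted p = 0.00092), with day 21 mouse 2 far above the other two and a rise of 2.38 without it. Pltp, which transfers phospholipid between lipoproteins, had 385, 316 and 287 CPM at day 21, against 193, 210 and 178 CPM at day 7. Lipa, the lysosomal acid lipase, had 1338, 1438 and 1437 CPM at day 21, against 944 to 1052 CPM at day 7. The cholesterol exporters Abca1 and Abcg1 rose by 0.69 and 0.80, and Nr1h3, which encodes LXR-alpha, by 0.38. Apoe had 958, 3426 and 1858 CPM at day 21, against 552, 1693 and 646 CPM at day 7, overlapped between the groups and was not called (log2 fold change 1.11, edgeR adjusted p = 0.2). With 1 mouse left out 4 to 7 members rose, 4 without day 7 mouse 1 and 5 without day 21 mouse 1, and the model of the 2 groups alone called 2. Genes of cholesterol synthesis rose in 3 of 25, among them Scap and Insig1, in KO mice and in 13 of 25 in WT mice, with medians of 0.19 and 0.55; the genotype difference was called for none of them. In KO mice 1 rose without day 7 mouse 1 or 3 or day 21 mouse 3, and 0 in the model of the 2 groups alone.

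Of 26 genes of fatty acid uptake, binding and storage 8 rose and 1, Fabp3, fell; 4 rose without day 7 mouse 1 and 5 in the model of the 2 groups alone. Lpl, lipoprotein lipase, had 2515, 3429 and 3671 CPM at day 21, against 1454, 1710 and 1912 CPM at day 7 (log2 fold change 0.92 ± 0.20, SE; edgeR adjusted p = 0.004). Pnpla2, the lipase that opens lipid droplets, rose by 0.71 and Mgll, monoglyceride lipase, by 0.96, and neither overlapped between the groups. Of 23 genes of fatty acid oxidation 5 rose, 1 rose without any one of day 7 mice 1 and 2 and day 21 mouse 1, and 0 were called in the model of the 2 groups alone. Cd36, the fatty acid receptor, had 276, 99.7 and 83.1 CPM at day 21, against 152, 148 and 96.6 CPM at day 7, and was not called.

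Receptors and bridging molecules of efferocytosis, the uptake of dying cells, rose in 6 of 18 tested members and fell in 2, of which 1 fell without day 7 mouse 1 or 2 or day 21 mouse 1 or 3. Mfge8, a bridging protein that binds phosphatidylserine, had 230, 458 and 712 CPM at day 21, against 98.7, 143 and 96.2 CPM at day 7 (log2 fold change 2.05 ± 0.32, SE; edgeR adjusted p = 0.00025), and its naive mean was 15.8 CPM. Pros1, protein S, a ligand of the TAM receptors, had 416, 308 and 328 CPM at day 21, against 124, 137 and 177 CPM at day 7. Of the TAM receptors, Mertk rose by 0.72 and Axl by 0.55, while Gas6, another of their ligands, fell by 1.65, and Stab1 fell as above.

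The genes with the largest rises had varied roles. Itgad, the integrin subunit CD11d (ENSMUSG00000070369.13; mm10 chromosome 7, 128154376 to 128223816), had 19.2, 41.4 and 9.34 CPM at day 21, against 0.573, 0.712 and 1.71 CPM at day 7 (log2 fold change 4.54 ± 0.59, SE; edgeR adjusted p = 4.2e-05). The rise was 5.17 without day 7 mouse 3 and 3.84 without day 21 mouse 2. Its naive mean was 20.4 CPM, so day 21 mice spanned the level from before injury. Slc40a1, the iron exporter ferroportin, had 28.4, 50.9 and 33.5 CPM at day 21, against 8.28, 5.04 and 8.64 CPM at day 7, with a naive mean of 14.5 CPM. Pianp, a transmembrane ligand of PILR-alpha, had 21.1, 24 and 28.9 CPM at day 21, against 2.52, 4.72 and 2.87 CPM at day 7, and differed from Itgad in that its naive mean was 0.523 CPM. Fgf1, a fibroblast growth factor, had 7.28, 4.7 and 4.66 CPM at day 21, against 0.989, 1.19 and 0.883 CPM at day 7. Plekha6, with a pleckstrin homology domain, and Mamdc2, a proteoglycan with MAM domains, rose by 2.67 and 2.33, and Plekha6 by 1.97 without day 21 mouse 3.

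Genes tied to fibrosis were called in both directions. Of 26 genes of fibrosis-associated macrophages 3 rose, Creg1, Cd9 and Lpl, and 2 fell, Tgfbi and Pdgfa. Among all genes tested 7.16% rose and 7.73% fell. The other 21 members of the list were not called, and its median log2 fold change was 0.13. Without day 21 mouse 1, 6 rose and 1 fell; without day 7 mouse 3, 3 rose and 4 fell; without day 7 mouse 1 or 2, 1 fell; and the model of the 2 groups alone called 1 each way. Spp1, osteopontin, had 2994, 14930 and 16590 CPM at day 21 and 4018, 7967 and 2404 CPM at day 7 (log2 fold change 1.26 ± 0.46, SE; edgeR adjusted p = 0.069). Day 21 mouse 1 lay within the day 7 range and the other two lay above it. Spp1 was called without day 21 mouse 1, at 1.72 (edgeR adjusted p = 0.0037), and without day 7 mouse 2, at 1.84 (edgeR adjusted p = 0.021), and by DESeq2 (adjusted p = 0.027). Fn1, fibronectin, was also lowest in day 21 mouse 1, with 4780, 13260 and 11630 CPM at day 21 and 5157, 8735 and 6112 CPM at day 7. Arg1, arginase, had 9.8, 499.5 and 194 CPM at day 21, against 333, 704 and 177 CPM at day 7, and Gpnmb, Trem2 and Mmp12 had log2 fold changes of -0.20, -0.05 and -0.03. Tgfbi, a TGF-beta-induced matrix protein, had 1364, 1897 and 1457 CPM at day 21, against 2846, 3067 and 2413 CPM at day 7, and did not overlap.

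**Figure D4:**
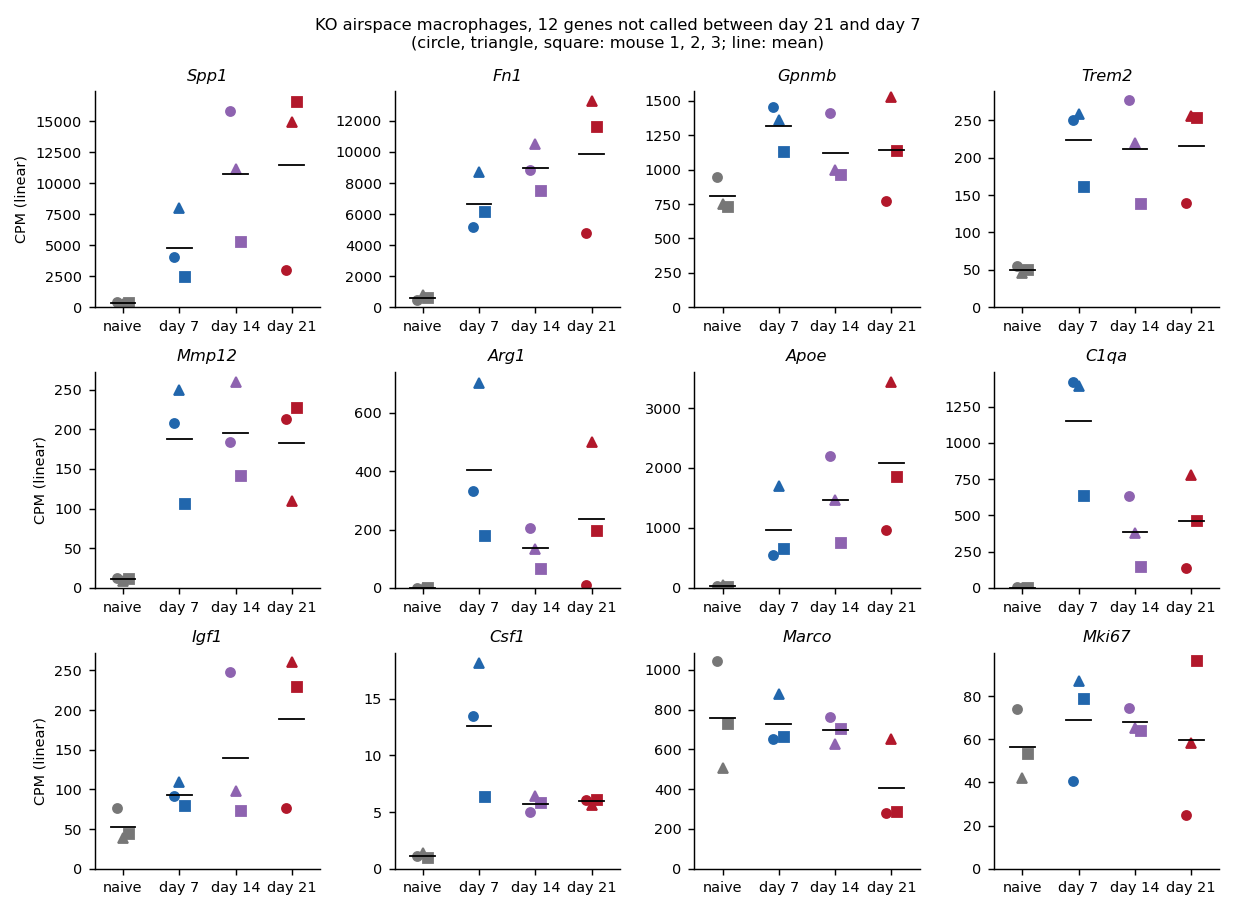
CPM on a linear scale of 12 genes that were not called between KO day 21 and KO day 7, in the 3 KO mice of each time from naive to day 21, with lines at the group means. For Spp1, day 21 mouse 1 (2994 CPM) lies among the day 7 mice (2404 to 7967 CPM) and the other two lie at 14930 and 16590 CPM.

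Among 22 growth factor and TGF-beta genes, 5 rose and 2 fell, where 7.16% of all genes tested rose and 7.73% fell. Without day 7 mouse 1 or 2, 2 rose and 1 fell. Without day 21 mouse 1 or 3, 1 fell. The model of the 2 groups alone called 1 each way. Tgfb1 had 616, 596 and 572 CPM at day 21, against 489.2, 505.6 and 518.7 CPM at day 7, a small rise of 0.24 ± 0.07 on the log2 scale (SE; edgeR adjusted p = 0.031). Tgfbr2, its type II receptor, had 706, 594 and 689 CPM at day 21, against 406.1, 424.8 and 523.1 CPM at day 7, and Pdgfc rose by 0.53. Pdgfa, a fibroblast mitogen, had 0.596, 3.24 and 2.43 CPM at day 21, against 8.51, 8.31 and 3.62 CPM at day 7 (log2 fold change -1.71, edgeR adjusted p = 0.038). Igf1 had 77.1, 261 and 230 CPM at day 21, against 91.2, 109 and 78.9 CPM at day 7 (edgeR adjusted p = 0.08), and Csf1 had 6.09, 5.65 and 6.08 CPM at day 21, against 13.4, 18.2 and 6.29 CPM at day 7 (edgeR adjusted p = 0.069); neither was called. Without day 21 mouse 1 Igf1 was called at 1.40 (edgeR adjusted p = 0.01), and without day 7 mouse 3 Csf1 was called at -1.41 (edgeR adjusted p = 0.018), as it was by DESeq2. Of 30 matrix genes 7 rose and 3 fell, beside the same shares of 7.16% and 7.73% among all genes tested. Of the matrix genes, 2 rose without day 7 mouse 1 and in the model of the 2 groups alone. Without day 7 mouse 3 or day 21 mouse 3, 4 rose, and 6 fell without day 21 mouse 2. Plau, the urokinase-type plasminogen activator, fell by 1.36. Mmp19, a metalloproteinase, had 467.6, 454.1 and 669.8 CPM at day 21, against 192, 293 and 193 CPM at day 7.

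Most called genes had moved by day 14. The KO day 14 mean was nearer the day 21 mean than the day 7 mean in 920 of the 976 genes that fell, or 94.3%, and in 794 of the 904 that rose, or 87.8%, against 69% of all genes tested. Day 7 and day 21 values chose these genes and also enter the distances. Of the genes that fell, 926 stood above the KO naive mean at day 7 and 396 still did at day 21. Of those that rose, 793 stood below it at day 7 and 387 at day 21. Because the genes were chosen by their direction from day 7 to day 21, both counts had to drop. They do not test a return to the naive level. Day 21 mouse 1 was the mouse farthest from the day 7 mean in 50.1% of the genes that rose and 49.9% of those that fell. It was the nearest in 30% and 27.2% of them. The shares over all genes tested were not computed, so these are not a trait of the called genes.

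The change over time was set against that in WT mice, in which 694 genes rose and 777 fell between day 7 and day 21, or 5.49% and 6.15% of those tested. Both genotypes shared 930 genes called in the same direction, which are 49.5% of the KO list and 63.2% of the WT list. These lists come from the model of all 8 groups. With the 2 groups of each genotype modelled alone, 426 genes were called in KO and 1411 in WT. Of the 1880 genes called in KO, 1819 or 96.8% had the same direction in WT, and across the 12634 genes the 2 sets of log2 fold changes had a Pearson r of 0.53 and a Spearman rho of 0.61; genes are not independent replicates. The genotype difference in the change, tested in the same model, was called for 0 genes by edgeR, with 615 at an unadjusted p under 0.05 and a smallest adjusted p of 0.35. limma-voom called 0 and DESeq2 called 6. A gene called in one genotype and not in the other, such as Pparg or Hmox1, is therefore not shown to differ between them.

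The genes with the smallest p for that difference were named after their values were seen. Retnla, encoding the resistin-like molecule FIZZ1, was the 1 gene called in opposite directions: it had 0, 0.0611 and 0.0776 CPM in KO mice at day 21 and 1.61, 7.6 and 0.331 CPM at day 7, and WT means were 9.09 ± 8.57 CPM at day 21 and 0.68 ± 0.459 CPM at day 7 (SD, n = 3). The difference between the log2 changes was -9.76 ± 1.97 (SE; edgeR adjusted p = 0.35). The KO fall was 4.30 and not called without day 7 mouse 2, 6.62 without day 21 mouse 3, and not called by limma-voom. Kazald1, encoding a secreted protein with a Kazal-type domain, had 75.4, 89.9 and 39.4 CPM at KO day 21 and 17.4, 16.1 and 27.6 CPM at KO day 7, while WT means were 26.5 ± 7.79 and 27.6 ± 2.73 CPM (SD, n = 3). Egfem1 had 7.66, 14.6 and 8.48 CPM at KO day 21 and 2.13, 3.32 and 4.25 CPM at KO day 7, with WT means of 4.51 ± 0.303 and 5.2 ± 0.669 CPM (SD, n = 3). Differences for these last were 1.81 ± 0.37 and 1.87 ± 0.38 (SE), each at an edgeR adjusted p of 0.35.

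**Figure D5:**
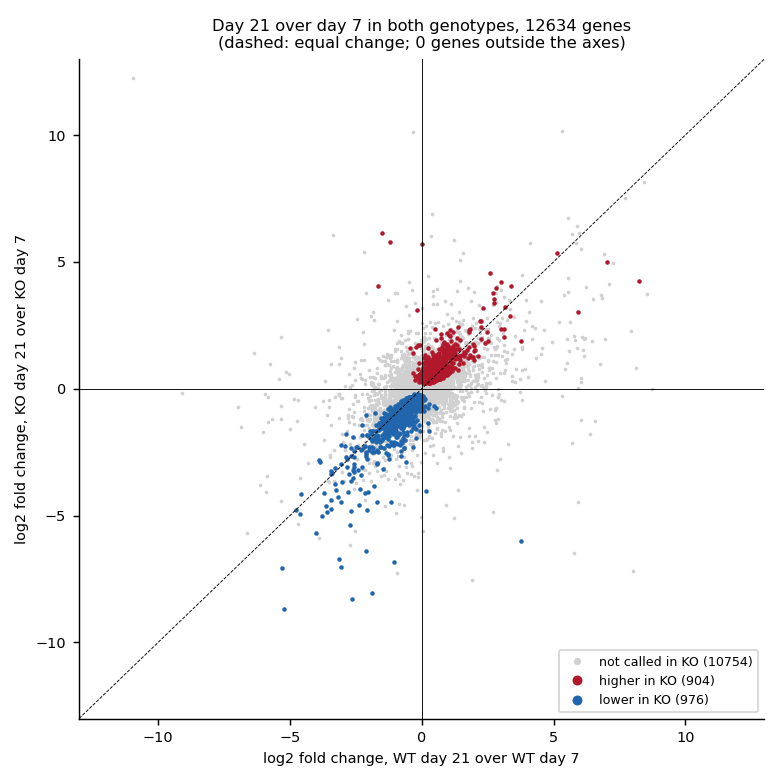
Log2 fold change of day 21 over day 7 in KO mice (vertical) against that in WT mice (horizontal) for 12634 genes, with the 904 genes that rose and the 976 that fell in KO coloured and a dashed line at equal change. Of the coloured genes 1819 lie in the quadrants of equal sign, and Retnla lies at 3.76 in WT and -6.00 in KO.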

How the data were processed

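RNA of airspace macrophages was sequenced with 150 bp paired-end reads (200 ng input, Universal Plus mRNA-Seq, per the labels' protocols). Values are expected counts per gene deposited by the authors, with 1 column for each of 24 mice in 8 groups; each mouse has a pair of sequencing runs in the labels, and whether a column sums both was not stated. The submitters' processing notes name mm10, bcl2fastq, DESeq2 1.42.0 and limma 3.58.1; no source used here names the aligner, counter or strand setting, so near-identical and overlapping genes are uncertain. A further 24 columns were not used. Gene positions came from GENCODE M21 and promoters from RefSeq.

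Counts were rounded to whole numbers, scaled with TMM and filtered (minimum count 10, total 15), which kept 12634 of 24411 genes. One model of 8 group means was fitted with edgeR 4.0.16 in R 4.3.3, with Benjamini-Hochberg adjusted p under 0.05 as the call. CPM are counts scaled by TMM-adjusted library size; list levels use log2(CPM + 1). Replicates are separate mice, and the main p-values set each change against a spread between mice estimated over all 8 groups. Reads carried no molecular identifiers, so the interval given covers counting error only. The steps were tested on simulated data. DESeq2, limma-voom, RLE scaling, no filter, the compared groups alone, a replicate block and leaving out each mouse were tried.

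The members and gene lists were chosen with earlier results of these data known. Named genes are the 8 highest and 8 lowest called log2 fold changes (standard symbol, the higher group averaging 5 CPM or more, mice not overlapping), the 3 with the smallest p in each list described (in marker lists where called), and a fixed panel; the rule's genes for the genotype difference had to be called, and there were 0. Others were named as further members of a list, for a motif or for the genotype difference, after their values were seen. Some named genes are not reported here.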

Additional observations from a re-analysis of the deposited data

How the results depend on the processing

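The KO comparison called 1880 genes. RLE scaling called 1878, no filter on low counts 1668, limma-voom 2033 and DESeq2 2254. The model of the KO day 21 and KO day 7 mice alone called 426, with 138 higher and 288 lower. Higher genes were 32.4% of those it called, against 48.1% in the model of all groups. The model of these KO mice alone estimates the spread from 6 mice only, as does the WT model of 2 groups alone given below. Leaving out each mouse in turn gave 973 to 1932 called genes, 405 to 920 higher and 568 to 1012 lower, the lowest without day 7 mouse 1. The genotype difference was called for 0 genes by edgeR and for 6 by DESeq2 (Retnla, Kazald1, Egfem1, Ext1, Amd1 and Gm28042). DESeq2 put the log2 differences of Amd1 and Gm28042 at 50.73 and -43.05, too large to be taken as estimates. Both had an edgeR adjusted p of 0.98. With a mouse left out it was called for 0 to 1 genes, the 1 being Kazald1 without KO day 21 mouse 3 (edgeR adjusted p = 0.037). The WT comparison called 1471 genes, 871 to 1473 with a mouse left out, and 1411 in the model of its 2 groups alone. The KO model of 2 groups alone called 426, and why the counts differ was not tested. Mouse numbers did not pair the samples: deviations of same-numbered KO mice correlated at 0.025, 0.28 and -0.073 (across genes), mouse 2 alone correlated best with its own number at the other day, and the fit with a replicate block called 1852 genes. Of 134 named genes called, DESeq2 and RLE scaling lost 0, limma-voom 6, no filter 5 and the block 5, and 0 changed direction while called in any setting. No setting moved the median of all genes by more than 0.1 on the log2 scale. Genes that were not called changed direction as follows, the cause not being tested. limma-voom gave log2 fold changes of -0.46 for Krt79 and -0.079 for H2-Ab1. With a mouse left out the values ran from -0.47 to 0.015 for Gpnmb, -0.24 to 0.19 for Trem2, -0.32 to 0.23 for Mmp12, -0.38 to 0.61 for Siglecf, -0.93 to 2.44 for Fabp1, -2.04 to 2.02 for Krt79 and -0.38 to 0.084 for Car4. They ran from -0.73 to 0.16 for Mki67, -0.41 to 0.062 for E2f1, -0.19 to 1.14 for Il1b, -0.52 to 0.42 for H2-Ab1, -0.54 to 0.50 for Cd36 and -0.51 to 1.05 for Cd2. With 3 mice a group, genes of wide spread such as Spp1, Apoe and C1qa limit what could be called.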

Other observations

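Glycolysis and hypoxia genes fell in 5 of 27 tested members and rose in 0; 3 fell without day 7 mouse 1, day 21 mouse 1 or day 21 mouse 3, and 2 in the model of the 2 groups alone. Hk3, a hexokinase of blood cells, had 50.1, 48.1 and 49.4 CPM at KO day 21, against 87.1, 85.6 and 68.4 CPM at KO day 7 (log2 fold change -0.71 ± 0.11, SE; edgeR adjusted p = 0.00016), and its naive mean was 51.5 CPM. Pgk1 and Eno1, enzymes of the later steps of glycolysis, fell by 0.66 each. In WT mice 1 member fell, and the genotype difference was called for none. Genes of the unfolded protein response fell in 5 of 24, among them Trib3, a pseudokinase, with 2.98, 2.99 and 2.15 CPM at KO day 21, against 8.28, 7.49 and 4.36 CPM at KO day 7. Asns, asparagine synthetase, fell by 1.40. The count was 3 without day 7 mouse 1 or 2 or day 21 mouse 2, and 0 in the model of the 2 groups alone, which also lost Eno1, Tlr1, Tlr8 and Mag. Of 20 tested Toll-like receptors and adaptors 1 rose and 2 fell, close to the shares of all genes tested, 7.16% and 7.73%. Tlr9, which senses unmethylated DNA, fell by 1.99 and Tlr1, a partner of TLR2, by 1.84, while Tlr8, an RNA sensor, rose by 0.72.

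Of 13 tested Siglec and CD300 receptors 2 rose and 0 fell, and 1 rose in the model of the 2 groups alone. The shares among all genes tested were 7.16% and 7.73%. Cd22, another inhibitory Siglec, had 224, 201 and 222 CPM at KO day 21, against 86.5, 117 and 122 CPM at KO day 7 (log2 fold change 0.99 ± 0.12, SE; edgeR adjusted p = 2.3e-05), beside a naive mean of 204 CPM. Mag, which encodes Siglec-4, rose by 0.81. Circadian clock genes rose in 4 of 17, among them Per2 at 14.2, 5.93 and 8.51 CPM at KO day 21, against 2.03, 3.9 and 4.06 CPM at KO day 7, and 0 were called without day 7 mouse 1 or in the model of the 2 groups alone, and 2 without day 21 mouse 1, where Per2 was lost; the hour of lavage is not in the labels. Il1b, encoding interleukin-1 beta, had 87.9 CPM in KO day 21 mouse 1 and 22.9 and 21.1 CPM in mice 2 and 3, against 21.7, 31 and 22.6 CPM at KO day 7, and was not called. H2-Ab1, an MHC class II chain, had 705, 2554 and 1318 CPM at KO day 21 and 1736, 1615 and 1002 CPM at KO day 7, and was not called.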
